A study of Mus musculus with 6 samples.

Results

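Platelet-derived growth factor (PDGF) and vascular endothelial growth factor (VEGF) signalling was described through 10 genes: the ligand genes Pdgfa, Pdgfb, Pdgfc, Vegfa and Vegfb and the receptor genes Pdgfra, Pdgfrb, Kdr, Flt1 and Nrp1. They were chosen by name, matched by Ensembl identifier, and all 10 were listed in each of the 6 libraries, among 14338 genes that were used. The libraries were droplet-based 3' single-cell RNA sequencing of the bladder mucosa, the urothelium and the connective tissue beneath it, peeled from the muscle wall. All mice were wild type C57BL/6 animals, 8 weeks old. The 2 healthy libraries came from mice without injury, the 2 acute libraries from mice 48 hours after cyclophosphamide (CPP), a drug whose metabolite damages the bladder lining, and the 2 chronic libraries from mice given 4 rounds of CPP over 11 days. The study names its 2 libraries per condition biological replicates, the labels do not tie a library to particular animals, and every p-value measures the spread between libraries.

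The PDGF ligands are secreted dimers that bind the receptor tyrosine kinases encoded by Pdgfra and Pdgfrb, and they are best known for recruiting and expanding fibroblasts and the mural cells, pericytes and smooth muscle, that wrap blood vessels. VEGF-A and VEGF-B bind receptors of the vessel lining: the product of Kdr carries most of the growth signal, the product of Flt1 binds both ligands tightly and often acts as a trap, and neuropilin-1, encoded by Nrp1, is a co-receptor for VEGF and for class 3 semaphorins. In many epithelia the ligands are made by the epithelium and the receptors by the stroma and vessels beneath it, so the level of each gene was read class by class.

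The tables held between 54604109 and 111985678 unique molecular identifiers (UMIs, the counted RNA molecules) per library, and 55398 of 56629 barcodes passed the filters. Any pair of libraries shared 36 to 229 barcodes, 0.67% to 2.28% of a library. Cells were sorted into classes rebuilt from marker genes, with the 10 genes and their pathway genes kept out of the clustering, and each class name below stands for cells like that type. A level is given in CPM, the UMIs of the gene over all UMIs of the class in a library, scaled to 1000000, for libraries with at least 20 cells of the class, with the SD over libraries. A 3' UMI level depends on the gene as well as on its RNA, so levels were compared between classes and libraries and not between genes. The endothelial class was led by its own markers, with a summed level of 5950.9 to 7935.5 CPM for 7 endothelial markers in the libraries with enough cells and none of them at 0. It reached 20 cells in only 3 libraries, with 35 cells in healthy 1, 21 in acute 1 and 259 in acute 2. The pericyte and smooth muscle classes reached 20 cells only in acute 2, with 36 and 74 cells. In the pericytes, 4 of the 7 endothelial markers (Pecam1, Cdh5, Emcn and Cldn5) were at 0, the other 3 were present (Esam at 311.7, Plvap at 32.8 and Egfl7 at 16.4 CPM), and the pericyte markers Rgs5 and Kcnj8 stood at 5594 and 426.5 CPM. The library acute 2 stood apart from the others: it was the only one whose gene symbols differed, for 304 identifiers, and the only one in which genes lay more than 10-fold off all other libraries in every urothelial layer, 4 higher and 14 lower of 8174, none of them among the 10 genes.

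Promoter sequences are shown for 2 pairs of genes: Pdgfa and Vegfa, both higher in the basal than in the other resting layers of the urothelium, and Kdr and Flt1, found in the endothelium. Each is a RefSeq window on GRCm38.p6 from 250 bases before to 50 bases after a transcript start, read on the minus strand, which is the coding strand for all of them. Capitals mark the GC box GGGCGG on either strand, searched with overlaps allowed.
Pdgfa, chr5:138994895-138995194, the farther upstream of 2 windows in the table: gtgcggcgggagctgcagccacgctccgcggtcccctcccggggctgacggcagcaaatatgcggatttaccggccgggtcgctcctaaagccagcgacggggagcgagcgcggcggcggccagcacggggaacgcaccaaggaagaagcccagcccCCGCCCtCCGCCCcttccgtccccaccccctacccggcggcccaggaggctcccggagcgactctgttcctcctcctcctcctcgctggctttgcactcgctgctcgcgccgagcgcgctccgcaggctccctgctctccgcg
Vegfa, chr17:46032328-46032627, the farther upstream of 2 windows in the table: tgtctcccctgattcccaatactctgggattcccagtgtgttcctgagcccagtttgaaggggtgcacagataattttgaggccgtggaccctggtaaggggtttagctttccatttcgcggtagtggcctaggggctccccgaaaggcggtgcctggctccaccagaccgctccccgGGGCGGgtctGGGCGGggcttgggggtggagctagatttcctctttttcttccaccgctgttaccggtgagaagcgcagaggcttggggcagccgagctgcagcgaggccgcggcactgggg
Kdr, chr5:75978406-75978705: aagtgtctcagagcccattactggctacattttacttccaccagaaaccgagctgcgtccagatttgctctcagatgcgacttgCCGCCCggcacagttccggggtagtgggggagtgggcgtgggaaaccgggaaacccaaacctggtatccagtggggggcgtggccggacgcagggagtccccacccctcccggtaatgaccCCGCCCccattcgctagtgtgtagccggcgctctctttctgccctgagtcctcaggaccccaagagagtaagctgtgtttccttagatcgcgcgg
Flt1, chr5:147725962-147726261: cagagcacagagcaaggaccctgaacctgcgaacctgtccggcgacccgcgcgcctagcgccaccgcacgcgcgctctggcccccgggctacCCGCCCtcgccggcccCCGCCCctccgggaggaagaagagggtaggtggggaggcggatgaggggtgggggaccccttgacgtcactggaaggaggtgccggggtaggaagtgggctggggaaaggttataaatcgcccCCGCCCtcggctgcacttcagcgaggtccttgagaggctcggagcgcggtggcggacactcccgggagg
The GC box occurred 2 times in the windows of Pdgfa, Vegfa and Kdr and 3 times in that of Flt1. At least 1 copy was found in 35.7% of 32851 promoter windows of this length, 2 or more in 19.5% and 3 or more in 10.7%, so the motif is common and does not set these genes apart. Vegfb held 4 copies and Nrp1 1, while Pdgfc and Pdgfra held none, and the table matched 8 of the 10 genes (not Pdgfb and Pdgfrb). The letters ACGTG, the core of the hypoxia response element, occurred in none of the 8 windows and in 19.6% of all windows, and GGAA, the core of ETS factor sites, occurred in all 8 and in 96.0% of all.

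Pdgfa (ENSMUSG00000025856, chr5:138976014-138997370), which encodes the PDGF A chain that binds PDGF receptor alpha, was found above all in the basal urothelium, the mural cells of acute 2 and, unevenly, the endothelium. In basal cells it stood at 98.1 and 67.1 CPM in healthy 1 and 2, 112.7 and 64.8 in acute 1 and 2, and 53.0 and 65.6 in chronic 1 and 2 (76.9 ± 23.1, SD, n = 6). Intermediate cells, the layer above, held 40.6 and 31.3 CPM in the healthy, 46.8 and 35.4 in the acute and 25.4 and 30.3 in the chronic libraries (35.0 ± 7.74). Superficial cells, the umbrella layer that lines the lumen, held 16.7 to 24.6 CPM, with a median of 19.9. The lowest basal library lay above the highest intermediate one, and within a library the basal level was 1.83 to 2.41 times the intermediate and 2.73 to 4.81 times the superficial level, in 6 of 6 libraries. Acute 1 was the highest library in each layer, as it was for 5.27% of 7356 genes. Cycling basal cells held 49.5 to 159.7 CPM and exceeded their basal counterparts in 4 of 6 libraries, so these neighbours in the order did not differ beyond their spread.

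**Figure D1:**
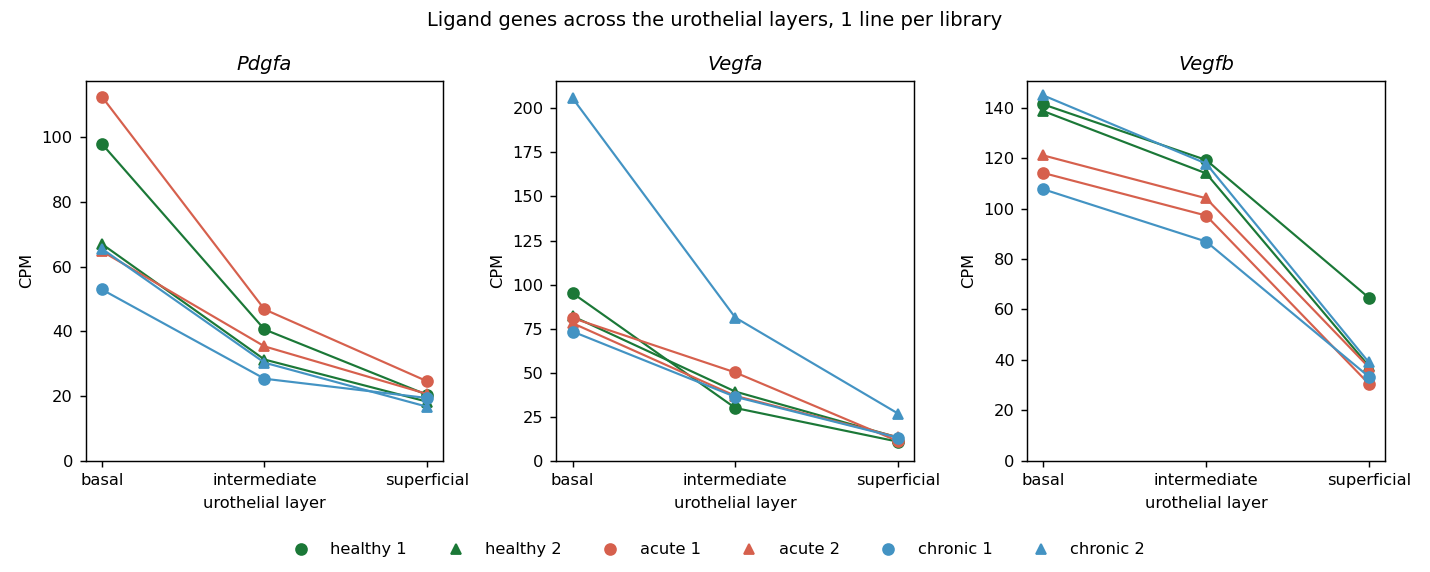
Levels (CPM, linear axis from 0) of Pdgfa, Vegfa and Vegfb in the basal, intermediate and superficial urothelial layers, with 1 line per library, coloured by condition. Each of the 18 lines ends lower in the superficial than it starts in the basal layer, and for Vegfa chronic 2 (205.8 CPM in basal cells) lies above the other libraries throughout.

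In the mural cells of acute 2, Pdgfa reached 459.3 CPM in pericytes, from 28 UMIs, and 446.8 CPM in smooth muscle, from 80 UMIs. With the few mural cells of all libraries pooled, the levels were 340.9 CPM (exact 95% Poisson interval 231.7 to 483.9, 45 cells) and 388.5 CPM (320.5 to 466.7, 106 cells), intervals that cover counting error only. Acute 2 gave 36 of these pericytes and 74 of these smooth muscle cells, so the pooled levels describe that library above all. Endothelial cells varied widely, with 122.6 CPM in healthy 1, 178.9 in acute 1 and 34.6 in acute 2, from 44 UMIs in all. They exceeded the basal cells in 2 of these 3 libraries. Fibroblasts held 13.1 to 39.3 CPM (29.8 ± 10.1, n = 5) and myofibroblasts 21.02 to 50.8 CPM (34.4 ± 11.3, n = 6). Urothelial RNA carried over into these stromal cells was read from 10 urothelial markers, with every UMI of them counted as carried over. It would account for 12.6% to 18.1% of their Pdgfa UMIs. Such estimates, here and below, can be too high where a class makes the markers itself. Macrophages ranged from 13.1 CPM in acute 1 to 94.0 CPM in healthy 1.

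Pdgfb (ENSMUSG00000000489, chr15:79995874-80014977) encodes the B chain, the ligand by which endothelium recruits pericytes, and endothelial cells were its main source. They held 81.7 CPM in healthy 1, 104.3 in acute 1 and 59.0 in acute 2 (81.7 ± 22.7, n = 3), from 46 UMIs, 38.0% of all Pdgfb UMIs in the classes although the class is small. Macrophages held 0 to 31.6 CPM from 18 UMIs, and cells presenting antigen by MHC class II 0 to 29.4 CPM from 8 UMIs. Pericytes held 1 UMI of Pdgfb and 442.9 CPM of the receptor gene Pdgfrb. The 3 urothelial layers, the fibroblasts and the myofibroblasts stayed under 2 CPM in every library.

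Pdgfc (ENSMUSG00000028019, chr3:81036416-81214040) encodes a ligand that is secreted in latent form and activated by proteases such as tissue plasminogen activator, and its mean level was highest in the myofibroblast class. Myofibroblasts held 51.4 and 23.1 CPM in the healthy, 59.5 and 70.7 in the acute and 50.3 and 20.3 in the chronic libraries (45.9 ± 20.1, n = 6), and they carried 77.4% of the gene's UMIs. Fibroblasts held 0.37 to 4.64 CPM (1.94 ± 1.78, n = 5), so the classes did not overlap in any library. Within libraries the difference was 4.49 ± 0.29 on the log2 scale (SE, edgeR quasi-likelihood test with library as a block, adjusted p = 7.72e-09). Inside the myofibroblast class the level was uneven: cells led by Gatm, Acta2 and Car3 held 94.0 CPM over the pooled cells (85.8 to 102.7) and cells led by Cxcl10 and Rbp4 83.0 CPM (73.5 to 93.4), against 28.1 CPM (22.9 to 34.1) in cells led by Mfap4 and Fmod and 27.4 CPM (21.8 to 34.1) in cells led by Actg2 and Thbs1. Acute 2 gave 992 of the 1216 Gatm-led and 369 of the 833 Actg2-led cells. Within libraries, the Gatm-led cells held 85.4 and 55.7 CPM in the healthy and 103.0 and 96.9 CPM in the acute libraries, against 24.0, 3.12, 7.64 and 37.7 CPM in the Actg2-led cells, so they were higher in all 4. The Cxcl10-led cells held 69.95 CPM in healthy 1 and 91.4 and 95.1 CPM in the acute libraries. In chronic 2 they held 13.1 CPM in 25 cells, and the Actg2-led cells 24.0 CPM in 43 cells. Both values, like the 3.12 and 7.64 CPM above, rest on a few UMIs. Endothelial cells (31.0 ± 7.15 CPM, n = 3) and macrophages (21.9 ± 7.69, n = 6) held Pdgfc at lower means, from 24 and 26 UMIs. Endothelial cells exceeded the myofibroblasts in 0 of 3 libraries and macrophages in 1 of 6. Cycling mesenchymal cells held a mean of 22.5 CPM.

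Vegfa (ENSMUSG00000023951, chr17:46016993-46032369) encodes the main growth factor of blood vessels and followed the same gradient through the urothelium as Pdgfa. Basal cells held 95.1 and 82.0 CPM in the healthy, 81.0 and 78.1 in the acute and 73.3 and 205.8 in the chronic libraries (102.6 ± 51.1, n = 6). Intermediate cells held 29.96 and 39.3, 50.1 and 36.8, and 36.3 and 81.3 CPM in the same order, and superficial cells 10.8 to 26.8 CPM (14.7 ± 6.02). Cycling basal cells held a mean of 53.5 CPM and exceeded the basal cells in only 1 of 6 libraries. In 5 libraries the basal level lay between 73.3 and 95.1 CPM, and chronic 2 stood at more than 2 times any of them. Chronic 2 was the highest library for Vegfa in all 3 layers, as it was for 7.88% of 7356 genes and for 0 of the 11 hypoxia genes that were measured well enough. In its basal cells Hif1a, the hypoxia factor gene, stood at 623 CPM against 400.1 to 499.6 CPM in the other libraries. Ldha, lactate dehydrogenase, stood there at 376 CPM against 419 to 557. Slc2a1, another of the hypoxia genes, stood there at 245.9 CPM against 90.2 to 176.0 CPM. In intermediate cells of chronic 2 it was at 118.0 CPM, just under acute 1 at 119.9 CPM. Adm, Egln3 and Ndrg1 lay in basal cells within the range of the other libraries. Pgk1 stood at 12.3 CPM in basal cells of chronic 2, against 120.8 CPM in acute 2 and 3.70 to 6.26 CPM in the rest. In all 3 layers, only acute 2 stood above chronic 2 for Pgk1. The part of hypoxia in the Vegfa level was not tested. With clusters built without integrating the libraries, the mean basal level of Vegfa was 164 CPM. The basal class was then 1 sub-cluster of 1844 cells, read in fewer libraries.

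Among the urothelial sub-clusters, Vegfa was highest in basal cells led by Klf4 and Thbs1 (112.7 CPM, mean over libraries), followed by basal cells led by Ly6a and Krt14 (90.6 CPM) and by the intermediate cells led by Il33, Fosl1, Areg and Hbegf (78.0 ± 32.1 CPM). Pdgfa had the same 3 sub-clusters on top among the non-cycling cells, at 70.9, 83.9 and 51.5 CPM. Outside the urothelium, fibroblasts held 26.6 to 36.9 CPM of Vegfa (32.8 ± 4.41, n = 5). This narrow range leaves out chronic 2, whose 19 fibroblasts were too few to be read. Myofibroblasts spread from 7.19 CPM in chronic 1 to 105.6 CPM in chronic 2 (39.7 ± 35.7, n = 6). Macrophages held 38 UMIs of Vegfa, of which carried-over urothelial RNA would give 25.1%, and healthy 2 and chronic 1 held 0, which allows up to 14.5 and 21.3 CPM. Those led by Cx3cr1 and Tnf held 95.4 CPM in acute 2, 96.0 in chronic 2 and 16.0 in healthy 1, and those led by Folr2 and Lyve1 held 18.8 in acute 2, 16.4 in acute 1 and 30.1 in healthy 1. Where both kinds could be read, the Cx3cr1-led cells were thus higher in acute 2, and both were at 0 in chronic 1. In healthy 1 the values came from a few UMIs in 54 Cx3cr1-led and 28 Folr2-led cells, too few to order the kinds. Endothelial cells held 2 UMIs of Vegfa, fewer than the 4.25 expected from carried-over urothelial RNA.

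Vegfb (ENSMUSG00000024962, chr19:6982473-6987651) encodes a ligand of the Flt1 product linked to fatty acid handling, and it was present in every layer of the urothelium and in stroma. Basal cells held 141.3 and 138.7 CPM in the healthy, 114.1 and 121.1 in the acute and 107.7 and 144.9 in the chronic libraries (128.0 ± 15.7, n = 6). Intermediate cells held 86.9 to 119.3 CPM (106.6 ± 12.8) and superficial cells 30.5 to 64.7 CPM (40.4 ± 12.3). The basal and intermediate ranges overlapped, while the highest superficial library lay below the lowest intermediate one. Cycling basal cells held a mean of 142.9 CPM, above the basal cells in 6 of 6 libraries (1.02 to 1.33 times), although the spreads overlapped. Myofibroblasts held 49.7 to 79.1 CPM (65.4 ± 12.3, n = 6) and fibroblasts 27.9 to 66.7 CPM (40.9 ± 15.5, n = 5). The 13 endothelial UMIs cannot be told from carried-over urothelial RNA, which would give 83.9% of them.

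**Figure D2:**
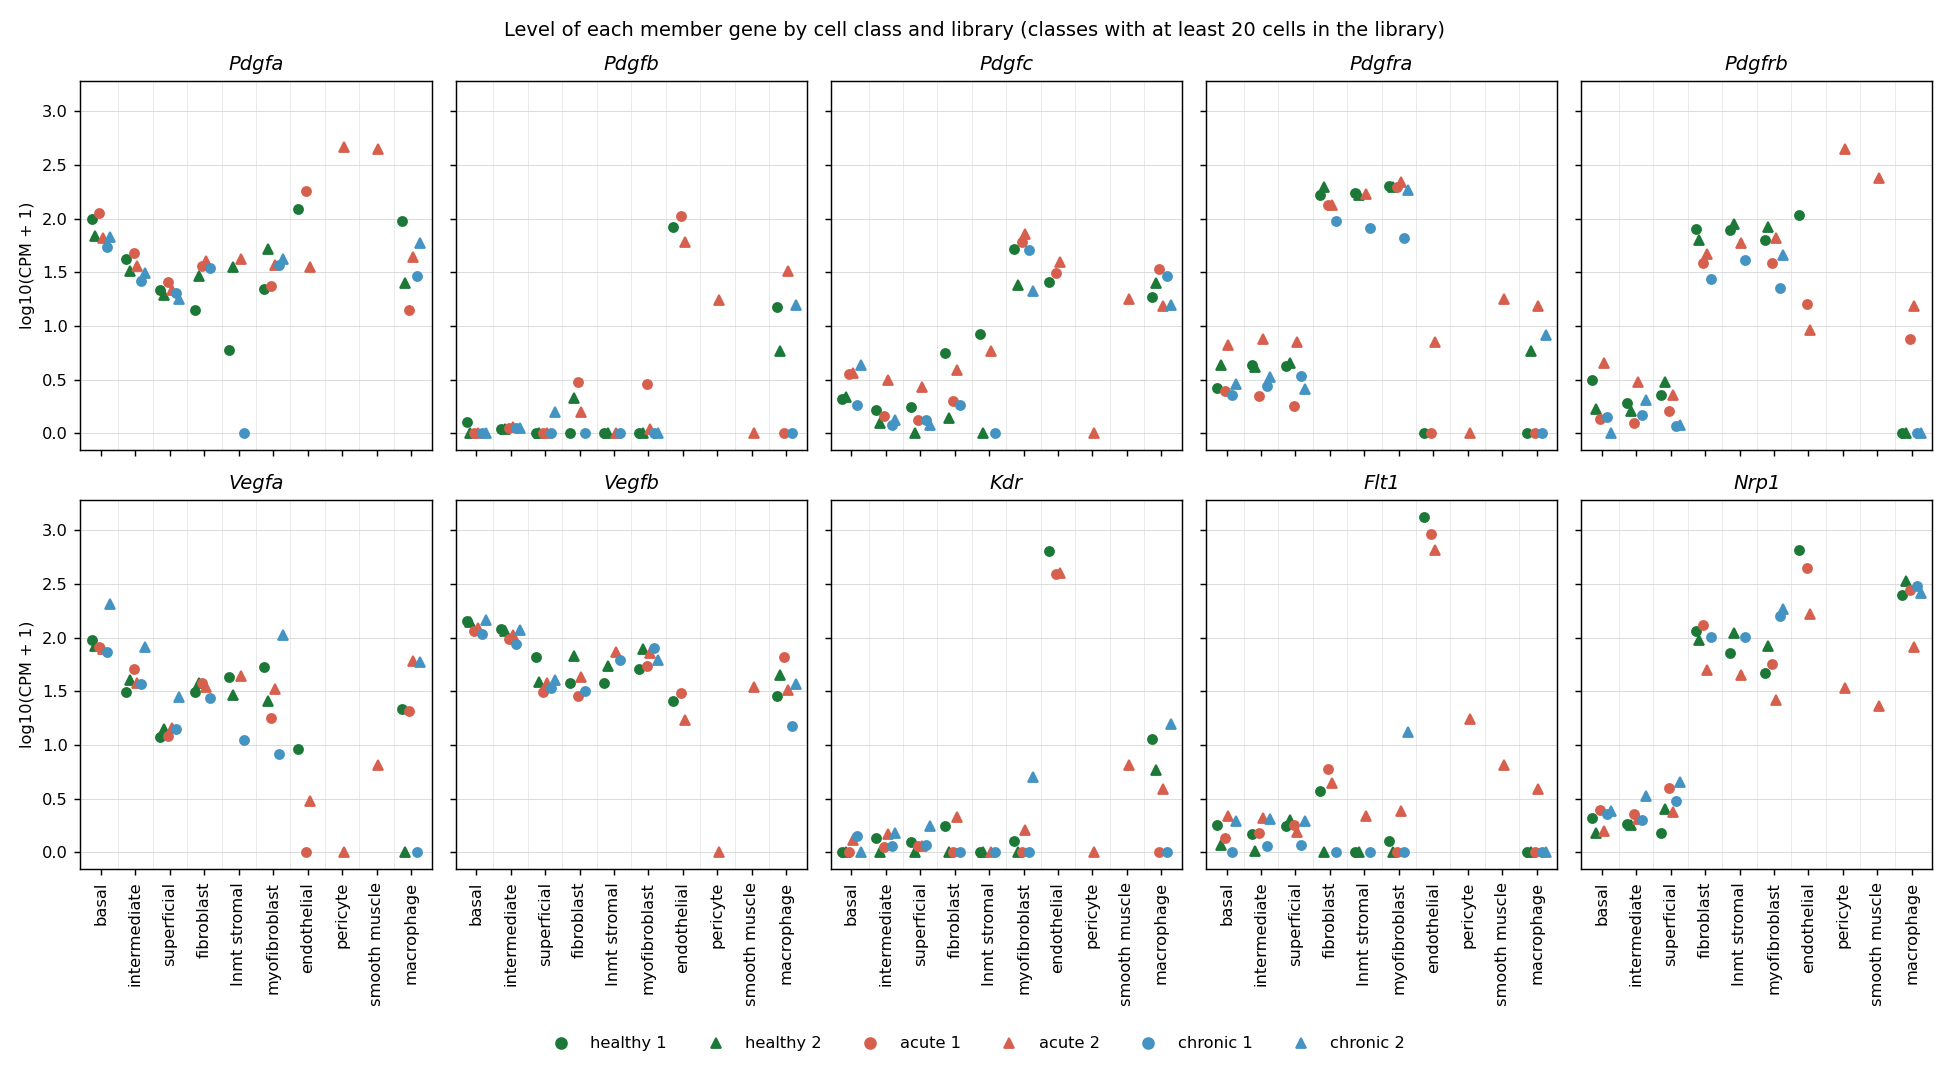
Level of each of the 10 genes (log10 of CPM + 1, log axis) in 10 cell classes, 1 point per library with at least 20 cells of the class, coloured by condition and shaped by replicate. Pdgfa, Vegfa and Vegfb descend through the urothelial layers, Pdgfra sits in the stromal classes, Pdgfrb is highest in pericytes and smooth muscle and lower in the stromal classes, and Kdr and Flt1 stand apart in the endothelium.

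Tested between neighbouring layers of the same library, the epithelial ligand genes were lower in each layer nearer the lumen. From basal to intermediate cells, 4 of the 8 genes tested were lower and 0 higher, against 45.2% of 12848 genes called in either direction and 22.7% lower: Vegfa by 1.05 ± 0.09 (adjusted p = 5.00e-09), Pdgfa by 1.02 ± 0.06 (adjusted p = 1.06e-10) and Vegfb by 0.16 ± 0.05 (adjusted p = 0.0121) on the log2 scale, and Pdgfc by 1.40 ± 0.40 (adjusted p = 0.00766). Pdgfc lay at 1.94 CPM in basal and 0.66 CPM in intermediate cells, where carried-over stromal RNA would give 19.4% and 47.7% of its UMIs. From intermediate to superficial cells Vegfa was lower by 1.58 ± 0.09, Vegfb by 1.37 ± 0.09 and Pdgfa by 0.74 ± 0.08 (adjusted p of 9.82e-07 or smaller by edgeR), where 52.1% of 12880 genes were called in either direction, 27.9% lower and 24.2% higher. Nrp1 was higher in superficial cells by 0.76 ± 0.25 (adjusted p = 0.0183), at 1.99 against 1.21 CPM, levels at which carried-over stromal RNA would give 77.1% of the intermediate and 45.2% of the superficial UMIs. Carried-over endothelial RNA, estimated separately in 5 libraries, would give 71.5% and 39.5% of the UMIs there. The call for Nrp1 was lost with DESeq2 (adjusted p = 0.0552), with stricter cell filters (edgeR, adjusted p = 0.0629) and without acute 1 (0.0807) or chronic 1 (0.0578), at differences of 0.75, 0.61, 0.64 and 0.70. With clusters built without integration, the basal to intermediate calls were lost for Vegfb (edgeR adjusted p = 0.0918), whose difference was then -0.23, and for Pdgfc (0.476), whose difference was -0.60. The basal class of that alternative was smaller and was read in fewer libraries.

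Pdgfra (ENSMUSG00000029231, chr5:75152292-75198215), the receptor gene for the A, B and C chains and a general mark of connective tissue fibroblasts, was shared by the stromal classes. Fibroblasts held 165.3 and 195.7 CPM in the healthy, 131.5 and 132.8 in the acute libraries and 94.2 in chronic 1 (143.9 ± 38.4, n = 5). Myofibroblasts held 199.1 and 197.0, 195.2 and 216.8, and 64.7 and 182.7 CPM over the same conditions (175.9 ± 55.6, n = 6), and a stromal class led by Inmt, Sct and Ass1 held 80.8 to 170.6 CPM (145.8 ± 43.4, n = 4). These neighbours in the order overlapped, and chronic 1 was the lowest library in all 3 classes. Urothelial layers held 0.78 to 6.47 CPM, of which carried-over stromal RNA would give 60.7% to 75.2%. Pericytes held 0 UMIs of Pdgfra, which allows up to 49.2 CPM at their depth, and endothelial cells 3 UMIs.

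Pdgfrb (ENSMUSG00000024620, chr18:61045150-61085061), the receptor gene for the B chain and a defining gene of mural cells, was highest in pericytes, at 442.9 CPM in acute 2 (27 UMIs), followed by smooth muscle at 240.1 CPM (43 UMIs). Pooled over libraries, the levels were 373.9 CPM (259.0 to 522.5) and 262.4 CPM (207.1 to 328.0), intervals that overlapped. Fibroblasts held 78.8 and 62.3 CPM in the healthy, 37.9 and 46.2 in the acute libraries and 26.2 in chronic 1 (50.3 ± 20.7, n = 5), so both healthy libraries lay above the other 3. Myofibroblasts held 61.6 and 81.6, 37.2 and 65.5, and 21.6 and 44.7 CPM (52.0 ± 21.7, n = 6), where healthy and acute overlapped. The Inmt-led stromal class held 65.7 ± 21.1 CPM (n = 4), a mean that was 28.1 CPM with clusters built without integration. Endothelial cells held 106.2 CPM in healthy 1 against 14.9 and 8.14 in acute 1 and 2, and 10 mural markers summed to 1585.5 CPM in that healthy class against 291.0 to 342.8 CPM in the acute ones, with none of the 10 at 0 in healthy 1. Cspg4, Higd1b and Myh11 were at 0 in acute 1, and Abcc9 was at 0 in acute 2. The part of mural RNA in this difference was not tested.

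Kdr (ENSMUSG00000062960, chr5:75932827-75978458) and Flt1 (ENSMUSG00000029648, chr5:147561604-147726011), the receptor genes of the vessel lining, were endothelial genes in every library that held enough of these cells. Kdr stood at 645.6 CPM in healthy 1, 387.6 in acute 1 and 403.0 in acute 2 (479 ± 145, n = 3). Flt1 stood at 1332.1, 924.2 and 661.4 CPM in the same libraries (973 ± 338, n = 3). Endothelial cells carried 70.6% of the Kdr and 68.4% of the Flt1 UMIs of all classes. In each urothelial layer, fibroblasts and myofibroblasts, UMIs summed over the 5 libraries with an estimate were fewer than the endothelial RNA estimated as carried over. Single libraries exceeded it for Flt1 in fibroblasts (2) and superficial cells (1) and for Kdr in basal cells (1). The estimate can be too high, at 894.5% of the Kdr UMIs seen in basal cells, and the source of these UMIs was not tested. The highest value outside the endothelium was 21.2 CPM, for Flt1 in the MHC class II cells of healthy 1, from a few UMIs.

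The endothelial cells were not uniform in these receptors. Cells whose 10 leading genes held Gpihbp1 and Rgcc, genes of capillary endothelium, beside the interferon-induced genes Rsad2 (the first of them), Ifit3b, Ifi47 and Ifi44, held 744.6 CPM of Kdr over the pooled cells (613.6 to 895.2) and 1133.4 CPM of Flt1 (970.3 to 1316.0). Those led by Ackr1 and Selp, genes of venules, held 230.1 CPM of Kdr (178.0 to 292.7) and 522.9 CPM of Flt1 (442.6 to 613.7). Cells led by Gkn3, Sox17 and Dll4, arterial genes, and cells led by Irf1 and Sox7 lay between them for both genes. Pdgfb followed a related split, at 118.6 CPM (70.3 to 187.4) in the Gpihbp1-led and 120.1 CPM (72.3 to 187.6) in the Gkn3-led cells against 38.3 CPM (19.1 to 68.6) in the Ackr1-led and 19.4 CPM (4.0 to 56.6) in the Irf1-led cells. Most cells of each sub-cluster came from acute 2 (39 of 55 Gpihbp1-led, 107 of 137 Ackr1-led, 69 of 88 Gkn3-led and 44 of 66 Irf1-led cells), so the split describes that library above all. Within acute 2 alone, the Gpihbp1-led cells held 756.1 CPM of Kdr and 955.6 CPM of Flt1, and the Ackr1-led cells 211.6 and 437.6 CPM.

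**Figure D3:**
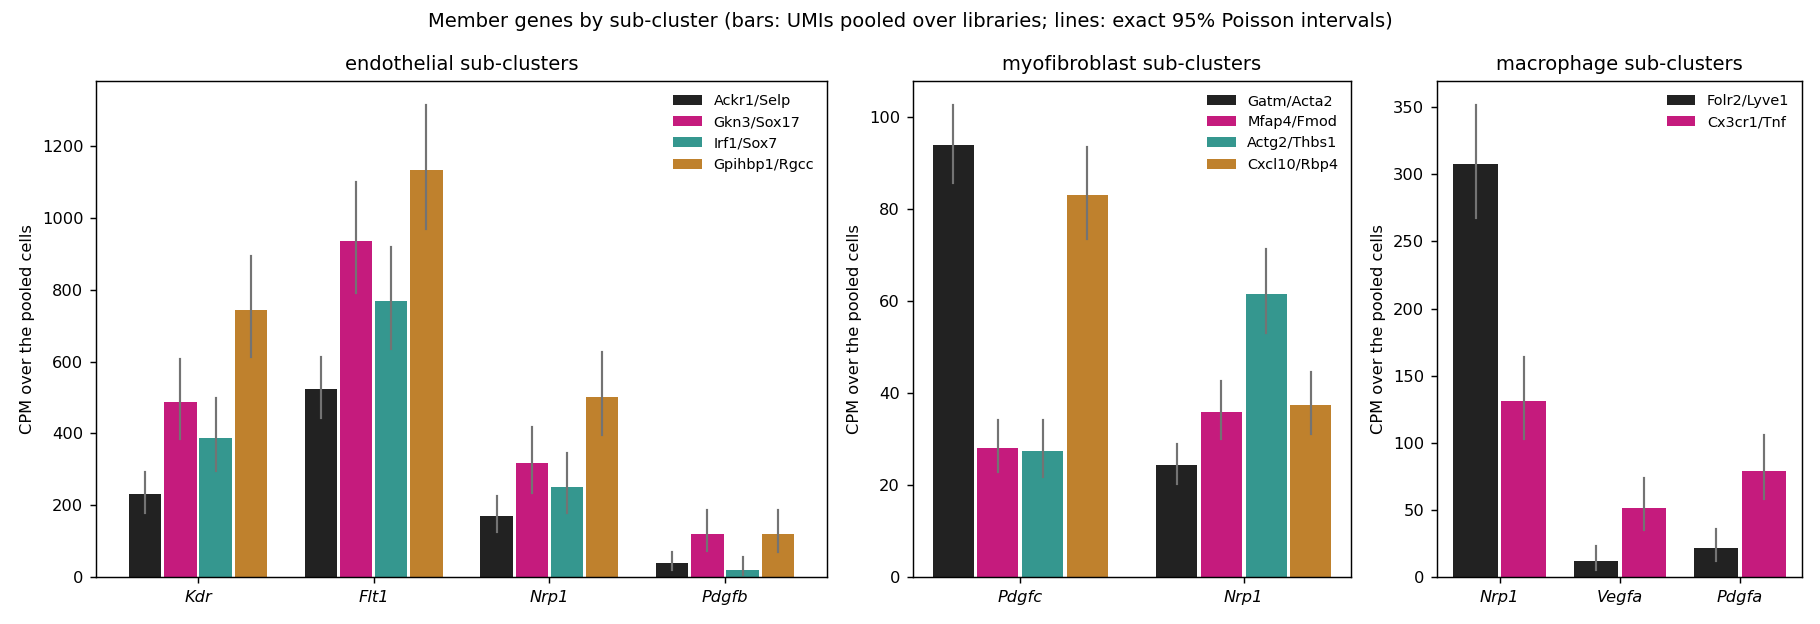
Levels (CPM over the pooled cells of all libraries, linear axes from 0) of selected genes in sub-clusters of the endothelial, myofibroblast and macrophage classes, named by 2 of their 10 leading genes, with exact 95% Poisson intervals as lines. Gpihbp1/Rgcc endothelium leads for Kdr (744.6 CPM), Gatm/Acta2 myofibroblasts for Pdgfc (94.0 CPM) and Folr2/Lyve1 macrophages for Nrp1 (307.8 CPM).

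Nrp1 (ENSMUSG00000025810, chr8:128358604-128503363), the co-receptor gene, was found in endothelium, macrophages and stroma, and barely in the urothelium. Endothelial cells held 662.0 CPM in healthy 1, 447.2 in acute 1 and 164.8 in acute 2 (425 ± 249, n = 3). Macrophages held 247.2 and 334.2 CPM in the healthy, 275.0 and 80.4 in the acute and 305.0 and 262.5 in the chronic libraries (251 ± 89.1, n = 6). The level lay between 247.2 and 334.2 CPM in 5 libraries, and acute 2 stood below them. Fibroblasts held 114.0, 94.9, 129.5, 49.0 and 100.1 CPM from healthy 1 to chronic 1 (97.5 ± 30.3, n = 5). Myofibroblasts held 45.5 and 83.1 CPM in the healthy, 55.8 and 25.1 in the acute and 158.2 and 182.7 in the chronic libraries (91.7 ± 64.3, n = 6), and the chronic pair lay above the other 4. Urothelial layers held 0.50 to 3.50 CPM.

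The library acute 2 was lowest for Nrp1 in 6 of the 7 classes with at least 3 libraries and a mean of 10 CPM or more. Being lowest in fibroblasts, myofibroblasts and macrophages together was the case for 1.55% of 6304 genes. This was also the library with its own gene symbols, and the part of its separate annotation in the Nrp1 level was not tested. Within macrophages, cells led by Folr2 and Lyve1, genes of tissue-resident cells near vessels, held 307.8 CPM (267.8 to 352.0) and cells led by Cx3cr1 and Tnf 130.9 CPM (103.1 to 163.8) over the pooled cells, of which acute 2 gave 52 of 214 and 71 of 195. The Folr2-led cells held 390.7 and 370.0 CPM in the healthy libraries, 294.7 and 119.1 in the acute ones and 381.9 in chronic 1, so acute 2 was also lowest within this sub-cluster. The Cx3cr1-led cells held 170.7 CPM in healthy 1, 47.7 in acute 2 and 200.7 in chronic 1, below the Folr2-led cells in these 3 libraries, and 156.0 CPM in chronic 2. In myofibroblasts led by Actg2 and Thbs1, Nrp1 stood at 208.4 and 215.7 CPM in the chronic libraries against 39.1 to 100.0 CPM in the other 4, so the chronic libraries were also highest within 1 kind of myofibroblast. The chronic values came from only 20 and 43 cells. The part of the makeup of the class in its Nrp1 level was not tested.

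Between myofibroblasts and fibroblasts of the same library, 2 of 7 genes tested were higher and 1 lower, where 11.8% and 10.6% of 11091 genes were (22.4% in either direction). Beside Pdgfc, Vegfb was higher in myofibroblasts by 0.64 ± 0.15 on the log2 scale (adjusted p = 0.00515), with carried-over urothelial RNA giving 16.3% of its UMIs there and 33.5% in fibroblasts. Nrp1 was lower by 0.72 ± 0.20 (adjusted p = 0.0143), and lower in 4 of the 5 libraries, the exception being chronic 1. Its call was lost with DESeq2 (adjusted p = 0.101) and, in edgeR, without healthy 1 (0.136) or acute 2 (0.0646), at differences of -0.64, -0.52 and -0.65. Differences that did not pass were 0.34 for Pdgfra (95% interval 0.03 to 0.64), 0.24 for Pdgfa (-0.18 to 0.66), 0.14 for Pdgfrb (-0.19 to 0.47) and 0.0050 for Vegfa (-0.48 to 0.49). Pdgfra passed without chronic 1 (0.42, adjusted p = 0.0449) and was 0.19 without acute 2, and Pdgfa ran from 0.078 without healthy 2 to 0.42 without acute 2.

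**Figure D4:**
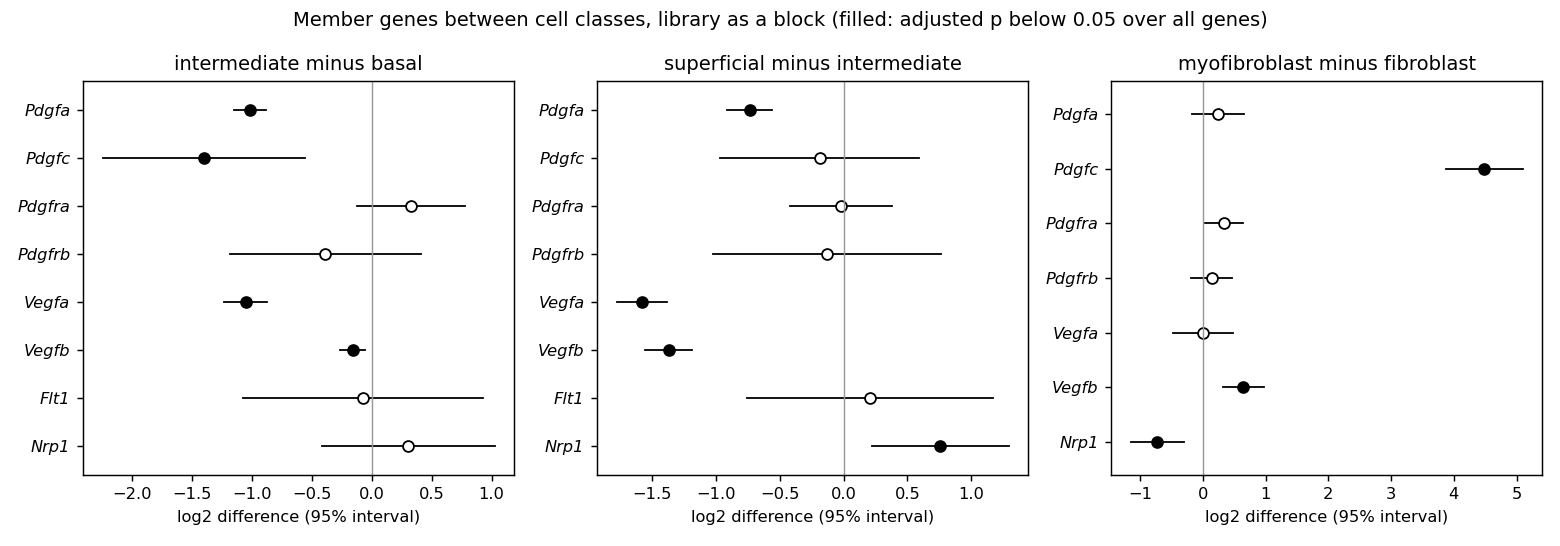
Log2 differences (points) with 95% intervals (lines) of the member genes between neighbouring urothelial layers and between myofibroblasts and fibroblasts, from edgeR with library as a block, where filled points passed an adjusted p of 0.05 over all genes. Pdgfa, Vegfa and Vegfb lie below 0 in both layer comparisons, and Pdgfc lies at 4.49 between the stromal classes.

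The comparison of conditions asked whether injury changed the genes within a class. Over 7 classes and the contrasts with healthy that their cells allowed, 78 tests of the 10 genes gave 0 calls by edgeR, where 12 of 116770 tests of all genes passed (0.0103%), and 0 by DESeq2, where 238 passed. The shares for all genes in single classes were 0.0179% and 0.00895% in fibroblasts (acute and chronic), 0.0337% in chronic macrophages, 0.249% in acute endothelium and 0.0% in the other class contrasts. At an unadjusted p under 0.05 there were 5 of 78 tests (6.41%), beside 4.31% for all genes. These 5 are named because their p was small. Pdgfrb in fibroblasts was lower by 0.72 ± 0.28 in acute (95% interval -1.38 to -0.06, edgeR adjusted p = 1.00) and by 1.45 ± 0.36 in chronic (-2.30 to -0.60, adjusted p = 0.887), and Pdgfra in chronic fibroblasts by 0.96 ± 0.32 (-1.71 to -0.21, adjusted p = 0.979), on the log2 scale. The fibroblast fit held 5 libraries, and its chronic group was chronic 1 alone, assumed to vary like the others. Nrp1 was higher by 1.45 ± 0.47 in chronic myofibroblasts (0.37 to 2.54, adjusted p = 0.818), whose 2 libraries held 57 and 81 cells, and lower by 1.18 ± 0.49 in acute endothelium (-2.14 to -0.21, adjusted p = 0.703). The healthy endothelial group was healthy 1 alone, with 35 cells, and was likewise assumed to vary like the acute pair, of which acute 2 stood at 164.8 and acute 1 at 447.2 CPM.

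The intervals of the other leading classes bound what could have been seen with 2 libraries a condition. In basal cells, Pdgfa differed by 0.12 (-0.57 to 0.80) in acute and -0.45 (-1.14 to 0.25) in chronic, and Vegfb by -0.22 (-0.80 to 0.37) and -0.13 (-0.72 to 0.46). Vegfa differed by -0.12 (-1.004 to 0.76) in acute and 0.65 (-0.23 to 1.53) in chronic, and the latter was -0.17 without chronic 2. Leaving out 1 library at a time, Pdgfa in chronic ran from -0.65 (without healthy 2) to -0.19 (without healthy 1), Vegfb in acute from -0.37 (without acute 2) to -0.091 (without acute 1) and Vegfa in acute from -0.20 (without acute 2) to -0.050 (without healthy 1). Pdgfc in myofibroblasts differed by 0.74 (-0.24 to 1.73) in acute and -0.30 (-1.63 to 1.03) in chronic, and Pdgfrb there by -0.38 (-1.25 to 0.49) and -1.003 (-2.12 to 0.11). The acute value of Pdgfc was 1.57 without healthy 1 and 0.35 without healthy 2. That of Pdgfrb was -0.079 without acute 1 and -0.89 without acute 2, and its chronic value was -0.66 without chronic 1 and -1.80 without chronic 2. In acute endothelium, where 1 healthy library faced 2 acute ones, Kdr differed by -0.59 (-1.54 to 0.35), Flt1 by -0.68 (-1.63 to 0.27) and Pdgfb by -0.07 (-1.64 to 1.504), and no chronic library had enough endothelial cells. Nrp1 in acute macrophages differed by -0.84 (-2.05 to 0.37), which was -0.17 without acute 2 and -1.88 without acute 1.

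**Figure D5:**
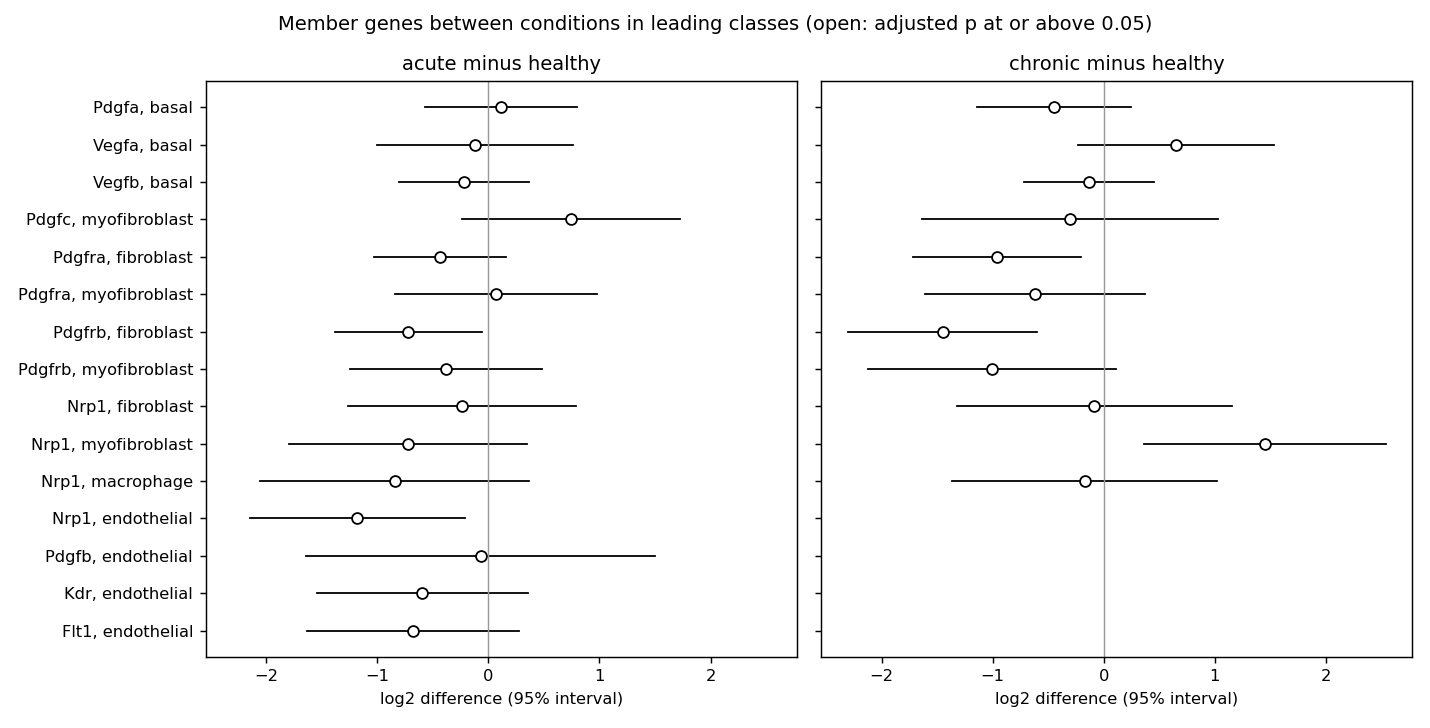
Log2 differences (points) with 95% intervals (lines) between acute or chronic and healthy libraries for 15 pairs of gene and class, from edgeR; open points did not pass an adjusted p of 0.05 over all genes. Every point is open; the intervals that leave 0 out are those of Pdgfrb and Pdgfra in fibroblasts, Nrp1 in chronic myofibroblasts and Nrp1 in acute endothelium, of which the chronic fibroblast and healthy endothelial groups were 1 library each.

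Genes around the ligands and receptors were read from 6 lists of pathway genes, of which 657 condition tests gave 0 calls by edgeR and by DESeq2, where 12 and 238 of the 116770 tests of all genes passed. At an unadjusted p under 0.05 there were 33 (5.02%), beside 4.31% for all genes. Between classes of the same library, calls were common over all genes too. From basal to intermediate cells, 23 of 65 pathway genes tested were lower and 6 higher, where 22.7% of all genes were lower and 22.5% higher, and their median log2 difference was -0.14 (-0.0028 over all genes). From intermediate to superficial cells 34 of 67 were lower and 8 higher, where 27.9% of all genes were lower and 24.2% higher, and the median was -0.30 (-0.020 over all genes). The hypoxia factor genes and targets had 8 of 14 lower and 1 higher at each step. Hif1a was lower by 0.69 ± 0.05 and then 1.36 ± 0.09 towards the lumen, and Ldha by 0.52 ± 0.06 and 0.29 ± 0.08 (edgeR, adjusted p of 0.00434 or smaller). Of the genes for activation and matrix binding, 4 of 10 were lower from basal to intermediate and 6 of 10 from there to superficial cells, with 1 higher each time, and Adamts1, a protease that binds VEGF-A, was lower by 1.30 ± 0.08 and 1.81 ± 0.19. The angiopoietin and Notch list had 5 of 7 lower at each step and 0 higher, with Notch1 lower by 0.28 ± 0.10 and 1.23 ± 0.09. Of the semaphorin and plexin list, 2 of 9 and then 6 of 10 were lower and 2 and 3 higher. Sema3c, which encodes a ligand of neuropilins, was lower by 1.17 ± 0.09 and 1.05 ± 0.10, and Gipc1, an adaptor of Nrp1, was higher by 0.45 ± 0.05 in intermediate cells. Of 21 receptor signalling genes, 4 were lower and 1 higher at the first step and 9 lower and 3 higher at the second, and Hras and Stat3 passed at neither. The other family members had 1 of 4 higher and then 0 of 5 called.

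Between myofibroblasts and fibroblasts, 14 of 65 pathway genes tested were higher and 12 lower, where 11.8% of all genes were higher and 10.6% lower (median log2 difference 0.033, -0.017 over all genes). The activation and matrix binding genes had 5 of 10 higher and 2 lower, with a median of 0.82. Thbs2, a matrix inhibitor of vessel growth, was higher in myofibroblasts by 2.56 ± 0.13 (edgeR adjusted p = 3.98e-10), at 777 ± 155 CPM (n = 6) there, while Adamts1 was lower by 0.57 ± 0.17 and stood highest in endothelium (709 ± 316 CPM, n = 3). Plau, the urokinase gene, was higher by 2.94 ± 0.41 and Plat, the tissue plasminogen activator gene, lower by 0.72 ± 0.16, both named after their values were seen because these proteases activate PDGF ligands. The other family members split 3 higher and 3 lower of 6: Vegfd, a lymphatic growth factor gene listed as Figf, was lower in myofibroblasts by 3.58 ± 0.28 and held 75.1 ± 45.9 CPM in fibroblasts, and Nrp2 was lower by 1.64 ± 0.15 and held 201 ± 49.9 CPM in endothelium. Also named after their values were seen, Pdgfd was higher in myofibroblasts by 0.79 ± 0.16, Vegfc by 1.37 ± 0.37 and Pdgfrl by 3.78 ± 0.23, and Pgf was lower by 1.90 ± 0.34. Sema3c was lower by 1.24 ± 0.17, and Tie1, the orphan endothelial receptor gene, was higher by 3.51 ± 0.64 at 8.195 CPM in myofibroblasts, with 213 ± 46.1 CPM in endothelium. Receptor signalling genes had 2 of 20 lower and 0 higher. The hypoxia list had 2 of 13 higher and 1 lower, the angiopoietin and Notch list 2 of 7 and 1, and the semaphorin and plexin list 2 of 9 and 3.

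The genes whose levels followed each member most closely over 65 pairs of class and library were found by Pearson's r of log2(CPM + 1), a description across classes that share libraries and depth. For Kdr they were Adgrl4 (r = 0.91) and Arap3 (0.90), for Flt1 C130074G19Rik (0.91) and Ushbp1 (0.90), and for Pdgfb Vwf (0.85) and Arap3 (0.80), so that Kdr and Pdgfb had Arap3 in common. Pdgfra went with B3gnt9 (0.94) and Nkain4 (0.93), Pdgfrb with Gjc1 (0.92) and Jph2 (0.92), and Nrp1 with Adam15 (0.90) and Renbp (0.89). The other ligand genes had lower values: Pdgfa with Stau1 (0.77) and Gpatch2 (0.74), Pdgfc with Ifit3b (0.76) and Ch25h (0.74), Vegfa with Mst1r (0.72), and Vegfb with Man1a2 (0.80) and Tnks2 (0.80).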

How the data were processed

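Single-cell RNA sequencing of mouse bladder mucosa was analysed in 6 libraries, 2 each from healthy, acute and chronic mice. The authors ran Cell Ranger against mm10 and deposited raw UMI counts, 1 table per library, with genes in rows and cells in columns, and no column of another sample was present (0). The tables of healthy 1 and acute 1 list no gene seen in fewer than 8 and 6 cells, the table of healthy 1 ends in an incomplete line, and 14450 genes were listed in all tables, of which 14338 were used after 13 mitochondrial and 99 ribosomal genes were left out. The 10 genes and all gene lists were chosen with earlier results of these data known.

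Barcodes needed more than 500 genes and less than 10% mitochondrial UMIs (55398 of 56629 passed). Scrublet doublet scores (scanpy 1.11.5) were called at 0.8% per 1000 cells (4.28% to 11.1% of a library), and 1 cluster with 51.7% called doublets was left out. Libraries were normalized with sctransform 0.4.2 and integrated with Seurat 5.3.0 over 3000 features, from which 83 genes (the members and their pathway genes) were kept out, and clustered with leidenalg 0.10.2 at resolution 0.8 (1.2 for vascular cells). Clusters were named where at least 3 markers of a type stood above a fixed multiple of their level in all other cells. Where fewer did, a cluster was urothelial if its mean score was higher for urothelial than for mesenchymal, macrophage, endothelial and NK or T markers. Sub-clusters were named by such markers and by thresholds on mean marker scores. Those with markers of several types were left out. UMIs were summed per class and library with at least 20 cells.

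Differences were tested with edgeR 4.0.16 (quasi-likelihood, TMM, filterByExpr) over all genes with Benjamini-Hochberg adjustment at 0.05 in R 4.3.3, in 1 fit per class for conditions and with library as a block for classes, and the scripts were tested on simulated data. DESeq2 1.42.0, no low-count filter, stricter cell filters (over 1000 genes, under 5%), doublets kept, no integration, a replicate block and leaving out each library were the alternatives. The study processed its samples in batches that the labels do not give, so no within-batch value was computed and batch and condition cannot be told apart. Carried-over RNA was estimated from the marker genes of the source class. Every UMI of these markers in a class was counted as carried over, and each source was estimated alone, so estimates can be too high. Some exceeded the UMIs seen, as for Pdgfra in endothelial cells (530.8%). Named genes were the members, the 2 genes most correlated with each, every pathway gene called between conditions or otherwise the 2 of each list with the highest mean CPM in any class, and markers that check a class. For Vegfa, 1 of the 2 correlated genes is not reported here. Promoter windows came from RefSeq tables (GRCm38.p6) and gene positions from GENCODE vM21. Intervals of pooled UMIs are exact Poisson intervals and cover counting error only. Endothelial, fibroblast and mural levels rest on fewer libraries than 6 because classes under 20 cells were not read.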

Additional observations from a re-analysis of the deposited data

How the results depend on the processing

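Calls between conditions were summed over classes and contrasts, so a gene can count more than once. They numbered 12, and 238 with DESeq2, 221 without the low-count filter, 7 with stricter cell filters and 29 with clusters built without integration. There were 366 with the replicate block and 10 to 249 with 1 library left out (19 without healthy 1, 76 without healthy 2, 249 without acute 1, 34 without acute 2, 10 without chronic 1 and 11 without chronic 2). Of the 10 member genes, 0 were called between conditions, and 1 was with the replicate block (Pdgfrb in chronic fibroblasts, log2 difference -1.47, edgeR adjusted p = 0.045). Over the classes, the deviations of same-numbered healthy and acute libraries correlated at -0.087 to 0.41 and those of healthy and chronic libraries at -0.31 to -0.23, so the numbers were not taken as pairs. With the 2 chronic numbers exchanged in the replicate block, 255 calls were made, 0 of them for the 10 member genes. That alternative was chosen after seeing the data. Calls between classes, summed over contrasts so that a gene can count more than once, numbered 13119 to 13997 with 1 library left out. From basal to intermediate cells the main fit gave 5807 calls (5106 to 5458 with 1 library left out). From intermediate to superficial cells it gave 6713 (5956 to 6845), and between myofibroblasts and fibroblasts 2484 (1767 to 2484). Member levels moved by less than their SD in 720 recalculations and by more in 6. Leaving out 1 library cannot move a mean by its SD, so the leave-out recalculations could only count among the 720. Basal Vegfa was 164 CPM without integration, over fewer libraries than the 103 CPM of the main classes. Condition differences kept sign and call 253 times, turned sign 10 times and gained a call 1 time. Class differences kept both 148 times, turned sign 7 times, lost a call 9 times and gained a call 1 time. Refits that left out a library the class did not hold, such as chronic 2 for fibroblasts, could only repeat the main value. They count among those that kept both.

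The following log2 differences turned sign, and the cause was not tested. For Pdgfa in acute basal cells the value was -0.10 without healthy 2 and -0.22 without acute 1 (range with 1 library left out -0.22 to 0.38). For chronic basal cells, Vegfa was -0.17 without chronic 2 (-0.17 to 1.18) and Vegfb 0.0087 without chronic 1 (-0.28 to 0.0087). For Pdgfc in chronic myofibroblasts it was 0.50 without integration, 0.47 without healthy 1 and 0.25 without chronic 2 (-0.97 to 0.47), and for Pdgfra in acute myofibroblasts -0.039 without integration. Pdgfb in acute endothelium was 0.019 with DESeq2 and 0.087 with stricter cell filters. Between myofibroblasts and fibroblasts, Vegfa was -0.24 with DESeq2, -0.022 without the low-count filter, -0.011 with stricter cell filters, -0.019 with doublets kept and -0.43 without healthy 1 (-0.43 to 0.12), and Pdgfrb -0.054 without integration and -0.028 without acute 2 (-0.028 to 0.34).

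Some fits could not be made. These were endothelial fits without healthy 1, acute 1 or acute 2 or with the replicate block, and chronic fibroblasts without chronic 1. Condition contrasts of basal cells and chronic fibroblasts could not be fitted without integration. Endothelial and mural levels are limited by few cells: in acute endothelium the 95% intervals of Kdr and Flt1 reached from -1.54 to 0.35 and from -1.63 to 0.27.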

Other observations

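Values outside the comparisons of the report concern small classes. Cycling endothelial cells, 38 cells over all libraries, held 307.0 CPM of Kdr (exact 95% Poisson interval 222.2 to 413.6), 399.9 CPM of Flt1 (302.0 to 519.2), 221.3 CPM of Nrp1 (150.4 to 314.2) and 35.7 CPM of Pdgfb (11.6 to 83.3) over the pooled cells. Cycling mesenchymal cells, read in healthy 1 and acute 2, held 91.7 and 176.0 CPM of Pdgfra, 45.8 and 67.2 CPM of Pdgfrb, and 72.0 and 38.4 CPM of Vegfa. NK or T cells held 55.5 to 110.0 CPM of Vegfb (88.6 ± 29.0, n = 3), of which carried-over urothelial RNA would give 68.2%. Cycling luminal urothelial cells held 48.7 to 62.2 CPM of Vegfb (54.6 ± 5.71, n = 4) and 14.9 to 33.8 CPM of Pdgfa (25.6 ± 8.39, n = 4).

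Among the pathway genes, the smallest unadjusted p between conditions were those of Vegfd in chronic fibroblasts, higher by 1.95 ± 0.40 on the log2 scale (edgeR, adjusted p = 0.579), Pgk1 in acute basal cells, by 4.02 ± 1.09 (adjusted p = 1.00), and Adm in chronic fibroblasts, by 1.24 ± 0.31 (adjusted p = 0.887). Pgk1 stood at 120.8 CPM in acute 2 against 3.70 to 12.3 CPM in the other libraries. None of these passed the adjustment.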
